A study of Homo sapiens with 12 samples.

Results

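The genes described here are 40 genes of the response to low oxygen and of glycolysis. They were listed by name, with earlier results of these data known. A gene counts as measured where the scanner's detection p was under 0.05 for 1 or more of its probes on 3 or more of the 12 arrays. This held for 61 probes of 37 genes, out of 22539 detected probes and 11933 named genes on the arrays. Of the 37 genes, 16 belong to the hypoxia response and 21 to glycolysis and the fate of pyruvate. CA9, SLC2A3 and SLC16A3 had no probe in the annotation used and were not analysed here. Where a gene had several detected probes, the one brightest over the arrays stands for it.

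RNA was compared between 2 prostate cancer lines derived from LNCaP, with 3 BeadChip arrays in each of 4 groups, 72 h after transfection with 25 nM of siRNA. The MDVR siGATA2 and MDVR siNT groups are LNCaP cells made resistant to the antiandrogen enzalutamide, selected at 25 microM and held at 10 microM, in 10% fetal bovine serum, with 1 siRNA against the transcription factor GATA2 or a non-targeting one. The Abl siGATA2 and Abl siNT groups are LNCaP-abl cells, kept in 10% charcoal-stripped serum, which is poor in androgens, with the same siRNAs. Cell line, serum and enzalutamide therefore differ together and cannot be told apart, and each condition is represented by 1 line. In bulk samples, fewer cells of a type and less RNA per cell cannot be told apart either.

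Cells sense oxygen through the prolyl hydroxylases of the EGLN family, which mark the alpha subunits of the hypoxia-inducible factors, HIF1A and EPAS1, for ubiquitination by the VHL complex. When oxygen is scarce the alpha subunits escape, pair with ARNT and bind a short core motif near target genes. Those targets include glucose uptake, most steps of glycolysis and the kinases that keep pyruvate out of mitochondria, and regulation of the alpha subunits is largely at the protein level, which arrays do not measure.

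The arrays each detected 19103 to 20513 probes (40.4% to 43.3%), and arrays of 1 group correlated at r = 0.989 to 0.992 across probes. Of the 11 luminal prostate markers checked, 9 were detected on every array. KLK3 and KLK2, which encode androgen-regulated kallikreins, were detected on the 3 MDVR siNT arrays and on no other array. Other cell types could be checked only in small part. The annotated probes of COL1A2 and PDGFRB, stromal markers, did not pass the detection filter, and CD68, a macrophage marker, was detected on all 12 arrays. The other stromal and leukocyte markers and all 3 endothelial markers on the list had no annotated probe and were not analysed here. Normalized log2 intensity of GATA2 itself was 9.09, 8.80 and 8.86 in MDVR siGATA2, 8.88, 9.16 and 9.26 in MDVR siNT, 8.43, 8.58 and 8.48 in Abl siGATA2, and 9.12, 8.80 and 8.82 in Abl siNT. The groups overlapped in MDVR and were separate in Abl. In MDVR the log2 difference of GATA2 was -0.18 (SE 0.12, adjusted p = 0.355), so the target check did not pass in that line. In Abl GATA2 RNA fell by 0.41 (SE 0.12, adjusted p = 0.0147), to 75.0% of the siNT level. The difference between the 2 effects, 0.23, did not pass by limma (adjusted p = 0.517).

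Most of the hypoxia and glycolysis genes were higher in MDVR than in Abl cells. Under siNT, 28 of the 37 genes were higher in MDVR, 4 were lower and 5 did not pass, by limma at an adjusted p under 0.05. Over all 11933 genes the same test called 24.4% higher and 24.5% lower, or 48.9% in either direction, and over all 22539 detected probes it called 41.1%. The median log2 difference was 0.75 for the 37 genes and 0.02 for all genes. Of the 37, 13 were at least 2-fold higher in MDVR and 2 were at least 2-fold lower. Over all 11933 genes, 722 were at least 2-fold higher and 803 at least 2-fold lower. On 33 of them the MDVR siNT and Abl siNT arrays did not overlap, against 56.7% of all genes. Hypoxia genes split 10 higher to 3 lower of 16, with a median of 0.86. Glycolysis genes split 18 higher to 1 lower of 21, with a median of 0.68.

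**Figure D1:**
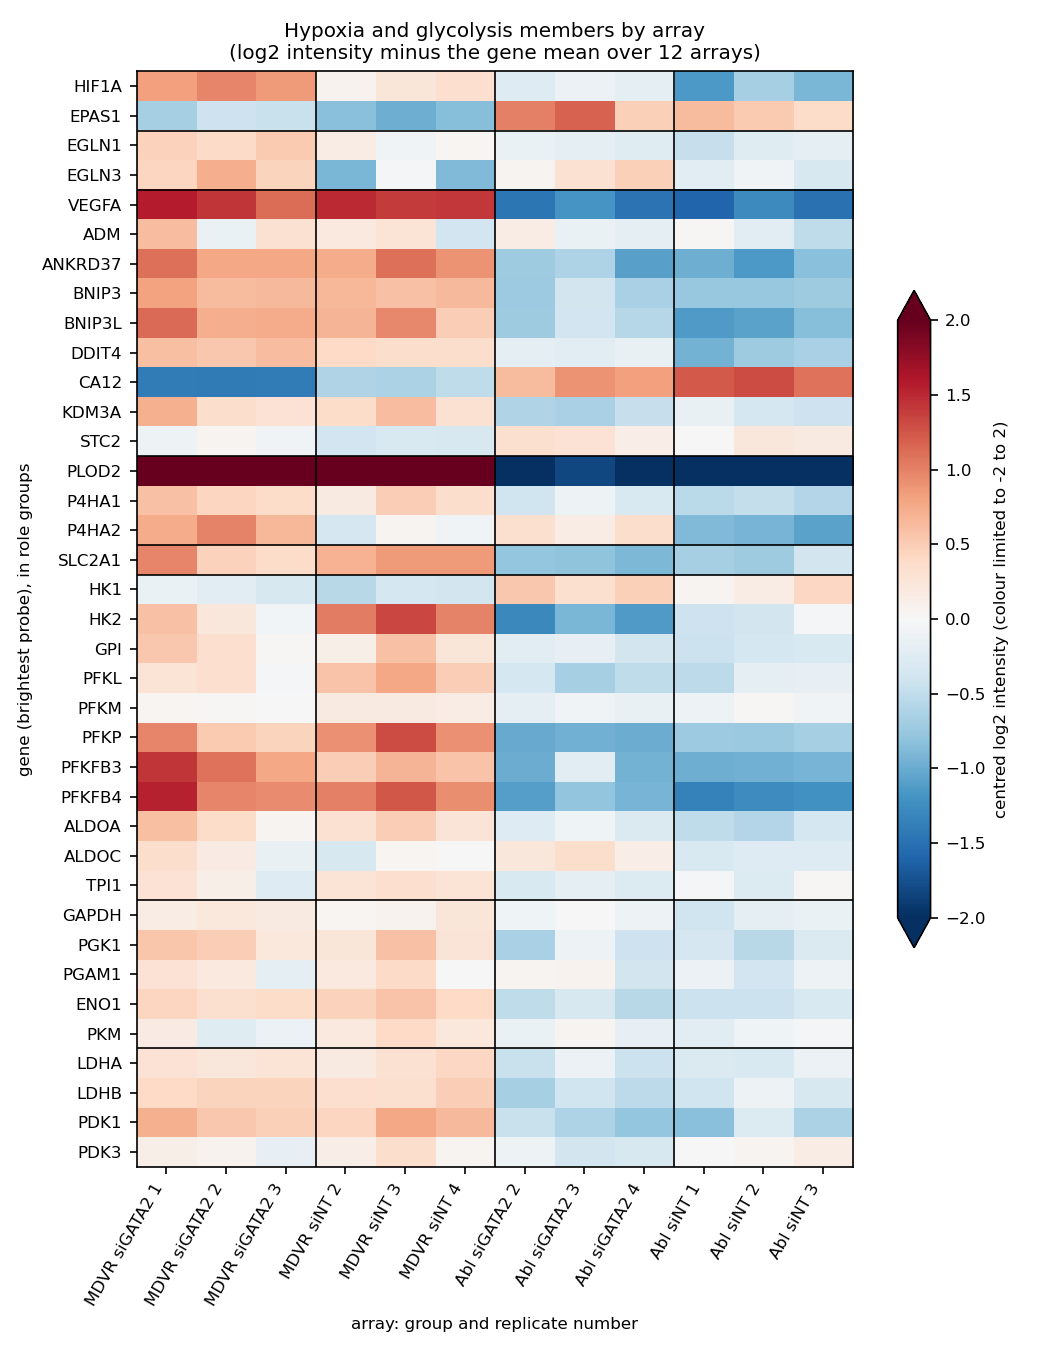
Normalized log2 intensity of each of the 37 genes on each of the 12 arrays, minus the gene's mean over the arrays, with colours limited to -2 and 2; horizontal lines divide the genes by role and vertical lines the groups. Most genes are red on the 6 MDVR arrays and blue on the 6 Abl arrays, with EPAS1, CA12, STC2 and HK1 the other way round.

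The direction of the line difference did not rest on which probe was read for most genes with several probes. Of the 18 genes with more than 1 detected probe, 14 were called higher in MDVR under siNT on every probe and 1, CA12, was called lower on both of its probes. Under siGATA2 11 were called higher on every probe, CA12 was again lower on both, and ALDOA had probes called in opposite directions. For PLOD2, counted as higher, all but the brightest probe were detected on MDVR arrays alone. The same share over all genes with several probes was not counted. Aligning the arrays by their medians alone in place of quantiles gave all genes a median log2 difference of 0.13 under siNT, against 0.02 as reported, and the 37 genes one of 0.95. Under that scaling 63% of the called genes on the array were higher in MDVR under siNT, against 49.9% as reported, and 63.9% under siGATA2, against 52.7%. Of the 37 genes, 30 were then higher and 4 lower under siNT.

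Promoters are shown for 6 of the genes because they lie on opposite sides of the line difference: PLOD2, PFKFB4, ANKRD37, BNIP3 and SLC2A1, higher in MDVR, and CA12, lower. Each stretch is the 250 bases before a transcript start listed in RefSeq GRCh38.p14, written 5′ to 3′ on the gene's strand. For PFKFB4 the listed start lies inside the annotated gene (chr3:48517684-48563136), and the windows of the other 5 genes end where the annotated gene begins. The windows are chr3:146161185-146161434 (minus strand) for PLOD2, chr3:48556804-48557053 (minus) for PFKFB4, chr4:185396591-185396840 (plus) for ANKRD37, chr10:131981924-131982173 (minus) for BNIP3, chr1:42958869-42959118 (minus) for SLC2A1 and chr15:63381847-63382096 (minus) for CA12. Capitals mark the letters ACGTG or GCGTG, the core that HIF recognises, on either strand.
PLOD2: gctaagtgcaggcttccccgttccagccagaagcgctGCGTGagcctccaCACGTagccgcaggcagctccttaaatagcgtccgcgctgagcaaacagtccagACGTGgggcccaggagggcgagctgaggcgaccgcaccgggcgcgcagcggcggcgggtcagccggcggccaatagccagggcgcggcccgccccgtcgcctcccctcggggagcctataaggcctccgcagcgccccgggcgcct
PFKFB4: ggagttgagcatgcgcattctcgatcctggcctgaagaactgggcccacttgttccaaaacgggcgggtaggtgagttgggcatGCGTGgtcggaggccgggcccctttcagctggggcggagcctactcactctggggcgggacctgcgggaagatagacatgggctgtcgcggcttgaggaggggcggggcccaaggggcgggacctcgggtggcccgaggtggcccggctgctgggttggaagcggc
ANKRD37: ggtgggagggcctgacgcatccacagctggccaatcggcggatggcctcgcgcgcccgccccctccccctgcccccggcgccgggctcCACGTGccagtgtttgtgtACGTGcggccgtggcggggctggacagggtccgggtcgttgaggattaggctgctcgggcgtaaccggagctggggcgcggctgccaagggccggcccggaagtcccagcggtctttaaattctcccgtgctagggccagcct
BNIP3: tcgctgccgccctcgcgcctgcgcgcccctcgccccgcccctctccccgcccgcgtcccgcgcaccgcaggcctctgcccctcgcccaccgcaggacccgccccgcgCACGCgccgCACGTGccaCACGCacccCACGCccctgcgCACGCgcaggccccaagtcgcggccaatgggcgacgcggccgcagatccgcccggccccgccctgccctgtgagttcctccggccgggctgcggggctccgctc
SLC2A1: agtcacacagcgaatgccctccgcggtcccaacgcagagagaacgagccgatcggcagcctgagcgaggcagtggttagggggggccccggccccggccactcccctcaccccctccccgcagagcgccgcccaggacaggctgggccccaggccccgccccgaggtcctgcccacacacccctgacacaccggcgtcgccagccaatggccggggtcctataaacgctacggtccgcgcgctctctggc
CA12: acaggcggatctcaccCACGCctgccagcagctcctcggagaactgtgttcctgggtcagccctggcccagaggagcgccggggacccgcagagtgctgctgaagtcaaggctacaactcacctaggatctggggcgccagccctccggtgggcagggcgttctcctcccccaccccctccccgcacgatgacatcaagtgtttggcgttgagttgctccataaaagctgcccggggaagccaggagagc
The motif was counted on both strands, so the palindrome CACGTG counts on each. BNIP3 holds 6 matches, PLOD2 and ANKRD37 hold 3 each, PFKFB4 and CA12 hold 1 each, and SLC2A1 holds 0 in this window. RefSeq windows were matched for 35 of the 37 measured genes. Counting every listed start, 36 of their 59 windows (61%) hold a core, against 43.2% of all 35116 windows of the same length. Those windows belong to 27305 genes, whether or not they were measured on these arrays. Among genes higher in MDVR 28 of 44 windows held one (63.6%), among those lower 4 of 10 (40%), and among those not called 4 of 5 (80%). HK1 alone lists 7 of the windows of the lower genes. Counted by gene, 29 of the 35 held a core in a window, against 12945 of all 27305 genes. By call this was 21 of 26 higher genes, 4 of 4 lower and 4 of 5 not called. A gene with several windows has more chances to hold a core. These are matches of letters and not measured binding sites.

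The 2 HIF alpha subunits went in opposite directions between the lines. HIF1A (chr14:61695513-61748258), which encodes the broadly expressed subunit, read 10.61, 10.76 and 10.64 in MDVR siGATA2, 9.86, 10.03 and 10.12 in MDVR siNT, 9.53, 9.68 and 9.61 in Abl siGATA2, and 8.64, 9.12 and 8.87 in Abl siNT, as normalized log2 intensity. The 4 groups were stacked without overlap, highest in MDVR siGATA2 and lowest in Abl siNT. MDVR exceeded Abl by 1.13 under siNT (SE 0.11, adjusted p = 3.56e-08), a 2.19-fold difference, and by 1.07 under siGATA2. All 3 HIF1A probes were called higher in MDVR under both siRNAs.

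EPAS1 (chr2:46297407-46386697), which encodes the subunit HIF-2 alpha, read 4.72, 4.97 and 4.94 in MDVR siGATA2, 4.55, 4.41 and 4.53 in MDVR siNT, 6.40, 6.57 and 5.86 in Abl siGATA2, and 6.01, 5.91 and 5.76 in Abl siNT. It was not above background on any MDVR array and was detected on all 6 Abl arrays. Its level in MDVR is thus known only as a bound. The bound sets the mean of the brighter group against a floor averaged over the dimmer group's arrays, the floor of an array being its lowest log2 signal among detected probes, or the reading of the probe itself if higher. EPAS1 was at least 1.77-fold lower in MDVR under siNT (adjusted p = 5.13e-06) and at least 2.31-fold lower under siGATA2 (adjusted p = 4.22e-06). Here and below, an adjusted p beside a bound is limma's for the log2 difference of the readings, and the bound itself was not tested. The EPAS1 probe passed the detection filter through Abl arrays alone.

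Neither measured prolyl hydroxylase of the HIF alpha subunits passed between the lines under siNT. EGLN1, the main oxygen sensor of this family, read 7.34, 7.27 and 7.40 in MDVR siGATA2, 7.04, 6.81 and 6.93 in MDVR siNT, 6.75, 6.68 and 6.64 in Abl siGATA2, and 6.43, 6.65 and 6.69 in Abl siNT. Its arrays did not overlap between the lines, yet the siNT difference of 0.34 did not pass (SE 0.14, adjusted p = 0.0561). It passed under siGATA2, at 0.65 (adjusted p = 0.000598).

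EGLN3 (chr14:33924227-33951074), itself a HIF target and so a feedback enzyme, read 6.89, 7.19 and 6.91 in MDVR siGATA2, 5.56, 6.42 and 5.58 in MDVR siNT, 6.52, 6.77 and 6.94 in Abl siGATA2, and 6.26, 6.40 and 6.15 in Abl siNT. MDVR siNT replicate 3 stood well above its 2 partners and reached above all 3 Abl siNT arrays. With it, the siNT line difference of -0.41 did not pass (SE 0.20, adjusted p = 0.117). Without that array it was -0.70 (adjusted p = 0.00489).

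Among the 9 other hypoxia targets, 6 were higher in MDVR under siNT, 2 were lower and ADM, a vasodilator peptide, did not pass (0.27, adjusted p = 0.377). VEGFA (chr6:43770211-43786487), the main angiogenic growth factor, read 11.03, 10.90 and 10.59 in MDVR siGATA2, 10.97, 10.86 and 10.89 in MDVR siNT, 8.03, 8.29 and 8.00 in Abl siGATA2, and 7.89, 8.20 and 7.98 in Abl siNT. Every MDVR array lay far above every Abl array. The siNT difference was 2.88 (SE 0.11, adjusted p = 5.65e-14), or 7.37-fold, and its second probe gave 3.02.

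BNIP3, a mitochondrial receptor for mitophagy, read 14.06, 13.89 and 13.90 in MDVR siGATA2, 13.91, 13.85 and 13.90 in MDVR siNT, 12.52, 12.89 and 12.60 in Abl siGATA2, and 12.50, 12.50 and 12.55 in Abl siNT. The lines were separate and the siRNA groups within a line were not. Its siNT difference was 1.37 (SE 0.08, adjusted p = 3.76e-11). The related receptor BNIP3L was higher in MDVR by 1.72 (adjusted p = 5.75e-10).

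DDIT4, a stress-induced inhibitor of mTORC1 signalling, read 12.91, 12.85 and 12.93 in MDVR siGATA2, 12.71, 12.66 and 12.66 in MDVR siNT, 12.13, 12.10 and 12.16 in Abl siGATA2, and 11.36, 11.60 and 11.66 in Abl siNT. The groups were ordered without overlap. MDVR exceeded Abl by 1.14 under siNT (SE 0.08, adjusted p = 1.77e-10). ANKRD37, an ankyrin-repeat protein, was higher in MDVR by 1.90 (adjusted p = 7.57e-10), and KDM3A, a histone demethylase, by 0.73 (adjusted p = 3.82e-05).

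CA12, a membrane carbonic anhydrase that helps to export acid, went the other way. It read 7.62, 7.60 and 7.63 in MDVR siGATA2, 8.42, 8.39 and 8.51 in MDVR siNT, 9.66, 9.93 and 9.84 in Abl siGATA2, and 10.25, 10.33 and 10.11 in Abl siNT. The 4 groups did not overlap, with MDVR siGATA2 lowest. CA12 was lower in MDVR by a log2 difference of -1.79 under siNT (SE 0.10, adjusted p = 5.77e-12) and -2.19 under siGATA2 (adjusted p = 2.12e-13). STC2, a secreted glycoprotein, read 10.91, 11.05 and 10.94 in MDVR siGATA2, 10.62, 10.70 and 10.69 in MDVR siNT, 11.33, 11.30 and 11.14 in Abl siGATA2, and 11.00, 11.23 and 11.18 in Abl siNT. Its MDVR arrays lay below its Abl arrays under the same siRNA. The STC2 difference was -0.47 under siNT (SE 0.08, adjusted p = 8.86e-05). Under siGATA2 it was -0.29 (adjusted p = 0.00615), which median scaling moved to -0.14 (adjusted p = 0.201).

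PLOD2, a lysyl hydroxylase that prepares collagen for cross-linking, had the largest positive difference of the 37 genes. It read 11.47, 11.27 and 10.84 in MDVR siGATA2, 11.43, 11.69 and 11.62 in MDVR siNT, 5.86, 7.00 and 6.30 in Abl siGATA2, and 6.13, 5.75 and 6.39 in Abl siNT. No Abl array came near any MDVR array. The siNT difference was 5.49 (SE 0.21, adjusted p = 4.06e-14), or 45.1-fold. The size depends on the background correction: on the authors' processed values the same log2 difference was 3.68. The other 2 PLOD2 probes were not above background on any Abl array and passed the detection filter through MDVR arrays alone. Their bounds, at least 15.2-fold and at least 2.10-fold, are therefore no separate support for the difference.

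The collagen prolyl hydroxylases, distinct from the enzymes that mark HIF, were also higher in MDVR. P4HA1, a catalytic subunit, read 12.05, 11.90 and 11.85 in MDVR siGATA2, 11.65, 11.97 and 11.83 in MDVR siNT, 11.07, 11.38 and 11.16 in Abl siGATA2, and 10.93, 10.99 and 10.89 in Abl siNT. Its lines did not overlap and the siNT difference was 0.88 (SE 0.09, adjusted p = 1.59e-07). P4HA2 (chr5:132190147-132227853), the alternative catalytic subunit, read 9.47, 9.72 and 9.38 in MDVR siGATA2, 8.39, 8.78 and 8.66 in MDVR siNT, 9.04, 8.87 and 9.07 in Abl siGATA2, and 7.84, 7.79 and 7.66 in Abl siNT. Here the Abl siGATA2 arrays rose above the MDVR siNT arrays, while each line was separate from the other under the same siRNA. The siNT difference was 0.84 (SE 0.12, adjusted p = 6.37e-06).

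**Figure D2:**
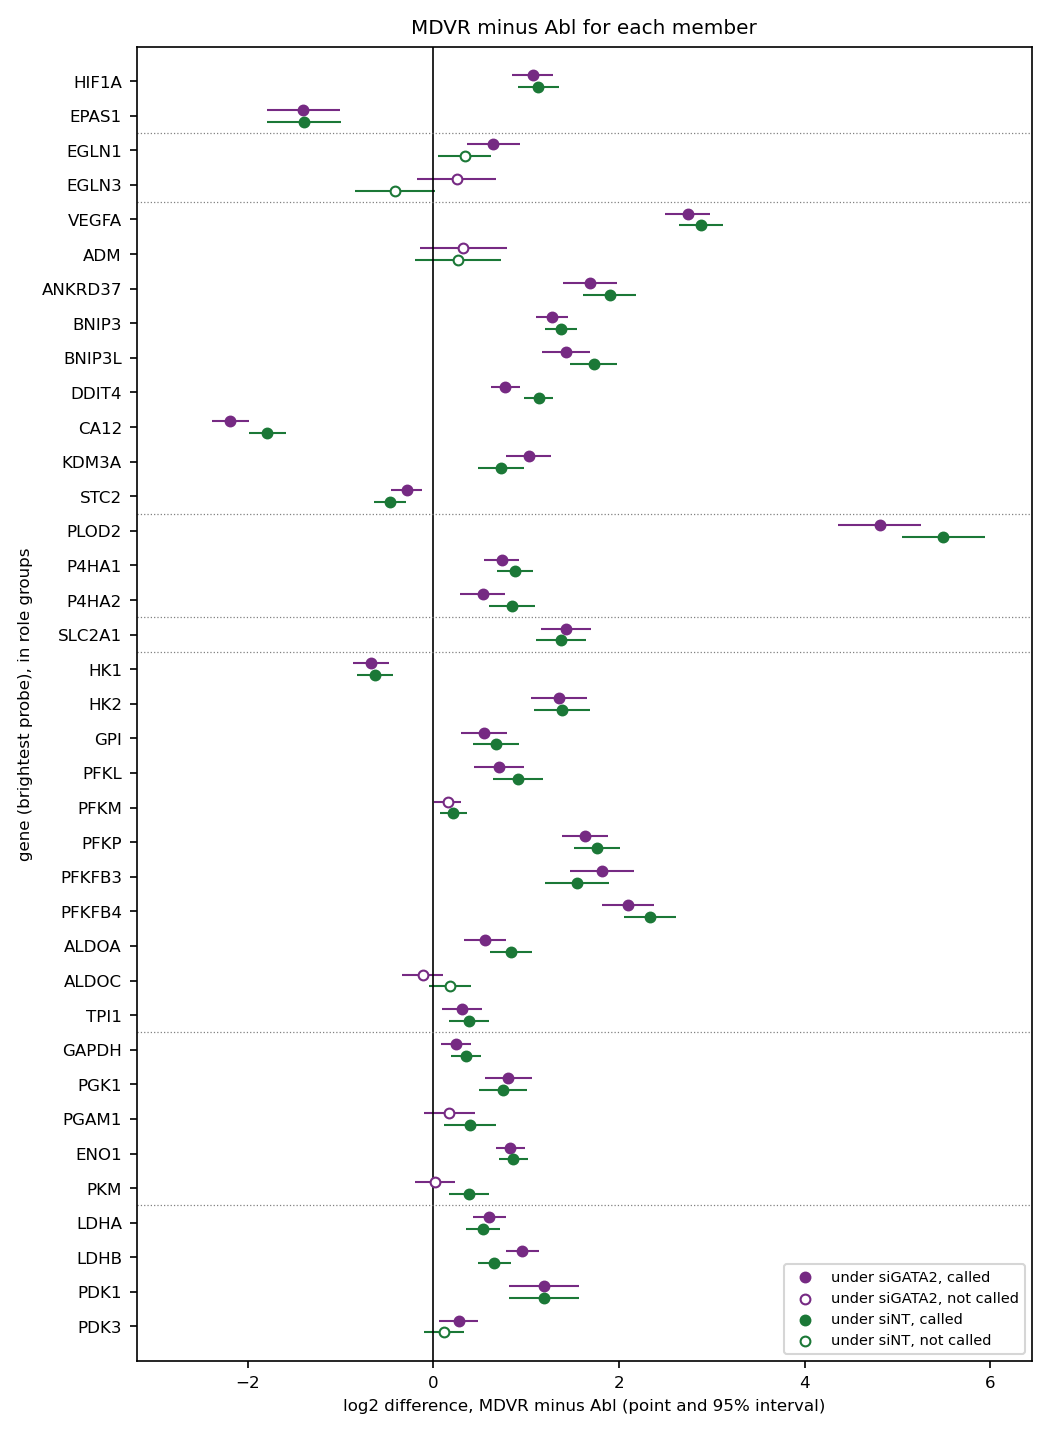
Log2 difference of MDVR minus Abl for each of the 37 genes under siGATA2 (purple) and under siNT (green), as a point with its 95% interval; filled points passed at an adjusted p under 0.05. Under siNT 28 genes lie to the right of 0 and passed and 4 to the left, from -1.79 for CA12 to 5.49 for PLOD2.

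Glucose uptake through SLC2A1 comes before the early reactions of glycolysis. SLC2A1, the widely expressed glucose transporter, read 10.68, 10.17 and 10.06 in MDVR siGATA2, 10.39, 10.56 and 10.56 in MDVR siNT, 8.92, 8.89 and 8.80 in Abl siGATA2, and 9.04, 9.00 and 9.34 in Abl siNT. The lines were separate, with a siNT difference of 1.38 (SE 0.13, adjusted p = 2.75e-08). Of the 11 measured genes of upper glycolysis, from hexokinase to triosephosphate isomerase, 9 were higher in MDVR under siNT, HK1 was lower and ALDOC did not pass.

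The 2 hexokinases, which trap glucose in the cell, had opposite signs. HK2 (chr2:74834127-74893359), the inducible form, read 10.16, 9.80 and 9.52 in MDVR siGATA2, 10.61, 10.92 and 10.58 in MDVR siNT, 8.30, 8.67 and 8.45 in Abl siGATA2, and 9.17, 9.21 and 9.56 in Abl siNT. The lines were separate under each siRNA, with a siNT difference of 1.39 (SE 0.14, adjusted p = 1.42e-07). HK1, the housekeeping form, was lower in MDVR by a log2 difference of -0.63 (SE 0.09, adjusted p = 1.36e-05). A dim second HK1 probe gave 0.20 (adjusted p = 0.499), and the mean of both probes did not pass (-0.22, adjusted p = 0.154).

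Phosphofructokinase is the main control point of glycolysis, and PFKFB3 and PFKFB4 make and break down its sugar bisphosphate activator. PFKP, the platelet-type subunit, read 11.70, 11.24 and 11.16 in MDVR siGATA2, 11.64, 12.03 and 11.64 in MDVR siNT, 9.72, 9.77 and 9.73 in Abl siGATA2, and 10.00, 9.98 and 10.05 in Abl siNT. PFKFB4 read 10.80, 10.23 and 10.20 in MDVR siGATA2, 10.27, 10.50 and 10.20 in MDVR siNT, 8.15, 8.47 and 8.34 in Abl siGATA2, and 7.91, 8.00 and 8.05 in Abl siNT. PFKFB3 read 10.75, 10.41 and 10.09 in MDVR siGATA2, 9.81, 10.00 and 9.88 in MDVR siNT, 8.33, 9.10 and 8.37 in Abl siGATA2, and 8.34, 8.35 and 8.38 in Abl siNT. For all 3 genes every MDVR array was above every Abl array. Under siNT the differences were 1.76 for PFKP (SE 0.12, adjusted p = 2.22e-10), 2.33 for PFKFB4 (SE 0.13, adjusted p = 1.82e-11) and 1.54 for PFKFB3 (SE 0.16, adjusted p = 2.12e-07). The liver-type subunit PFKL was higher by 0.91 (adjusted p = 8.18e-06). The muscle-type PFKM had the smallest difference that passed, 0.21 (SE 0.07, adjusted p = 0.0182), which was 0.18 and did not pass without Abl siNT replicate 1 (adjusted p = 0.0685).

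The remaining enzymes of upper glycolysis differed by less than 2-fold. GPI, the isomerase after hexokinase, was higher in MDVR by 0.68 (adjusted p = 8.86e-05), and TPI1, triosephosphate isomerase, by 0.38 (adjusted p = 0.00561). ALDOA, the main aldolase, was higher by 0.83 on its brightest probe (adjusted p = 2.72e-06) and by 0.56 on a second, while a dim further probe gave -0.19 (adjusted p = 0.564). ALDOC, the brain-type aldolase, read 12.39, 12.20 and 11.88 in MDVR siGATA2, 11.72, 12.08 and 12.03 in MDVR siNT, 12.27, 12.39 and 12.17 in Abl siGATA2, and 11.74, 11.78 and 11.78 in Abl siNT. The lines overlapped under both siRNAs, and the siNT difference was 0.18 (SE 0.11, adjusted p = 0.203).

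All 5 measured enzymes of lower glycolysis were higher in MDVR under siNT. ENO1, enolase, read 14.21, 14.10 and 14.15 in MDVR siGATA2, 14.25, 14.35 and 14.18 in MDVR siNT, 13.28, 13.47 and 13.23 in Abl siGATA2, and 13.36, 13.36 and 13.48 in Abl siNT. PGK1, phosphoglycerate kinase, read 13.49, 13.42 and 13.14 in MDVR siGATA2, 13.17, 13.52 and 13.19 in MDVR siNT, 12.29, 12.83 and 12.51 in Abl siGATA2, and 12.59, 12.39 and 12.65 in Abl siNT. Neither gene overlapped between the lines. The siNT difference was 0.86 for ENO1 (SE 0.07, adjusted p = 1.01e-08) and 0.75 for PGK1 (SE 0.12, adjusted p = 4.32e-05).

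GAPDH, often used as a loading control, read 14.10, 14.16 and 14.14 in MDVR siGATA2, 13.99, 14.01 and 14.19 in MDVR siNT, 13.86, 13.95 and 13.85 in Abl siGATA2, and 13.55, 13.77 and 13.82 in Abl siNT. Its lines were separate by a small margin, with a siNT difference of 0.35 (SE 0.08, adjusted p = 0.000981) and all 3 probes called higher. PKM, pyruvate kinase, read 10.53, 10.12 and 10.25 in MDVR siGATA2, 10.55, 10.76 and 10.57 in MDVR siNT, 10.23, 10.42 and 10.20 in Abl siGATA2, and 10.13, 10.27 and 10.34 in Abl siNT. MDVR siNT stood above the other 3 groups. The PKM difference was 0.38 under siNT (SE 0.10, adjusted p = 0.0049) and 0.01 under siGATA2 (adjusted p = 0.925). PGAM1, phosphoglycerate mutase, was higher by 0.40 under siNT (adjusted p = 0.0213), and did not pass on leaving out MDVR siNT replicate 3 (0.30, adjusted p = 0.12), MDVR siNT replicate 2 (0.40, adjusted p = 0.0505) or Abl siNT replicate 2 (0.30, adjusted p = 0.114). Probes of GAPDH, PGK1, ENO1, PGAM1, TPI1, ALDOA and LDHA may also read near-identical pseudogene copies, so their values are uncertain to that extent.

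Of the 4 measured enzymes that decide the fate of pyruvate, 3 were higher in MDVR under siNT and PDK3 did not pass. LDHA, the lactate dehydrogenase subunit that favours lactate, read 14.25, 14.19 and 14.23 in MDVR siGATA2, 14.14, 14.27 and 14.37 in MDVR siNT, 13.50, 13.83 and 13.53 in Abl siGATA2, and 13.68, 13.66 and 13.84 in Abl siNT. LDHB, the subunit that favours pyruvate, read 12.92, 12.97 and 12.97 in MDVR siGATA2, 12.86, 12.84 and 13.02 in MDVR siNT, 11.86, 12.12 and 12.00 in Abl siGATA2, and 12.13, 12.43 and 12.21 in Abl siNT. Both were separate between the lines. Under siNT the difference was 0.53 for LDHA (SE 0.09, adjusted p = 3.92e-05) and 0.65 for LDHB (SE 0.08, adjusted p = 2.69e-06).

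PDK1, a kinase that shuts the pyruvate dehydrogenase complex, read 6.57, 6.40 and 6.33 in MDVR siGATA2, 6.29, 6.63 and 6.50 in MDVR siNT, 5.41, 5.24 and 5.08 in Abl siGATA2, and 5.03, 5.58 and 5.23 in Abl siNT. The probe was detected on all 6 MDVR arrays and on 4 of 6 Abl arrays. Its siNT difference was 1.19 (SE 0.18, adjusted p = 1.96e-05). PDK3, a second kinase of the complex, read 9.72, 9.68 and 9.45 in MDVR siGATA2, 9.74, 9.97 and 9.67 in MDVR siNT, 9.50, 9.25 and 9.29 in Abl siGATA2, and 9.62, 9.67 and 9.75 in Abl siNT. The groups overlapped and the siNT difference of 0.11 did not pass (SE 0.10, adjusted p = 0.42), while its second probe was called at 0.52 (adjusted p = 0.00255).

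The line difference was measured a second time in the siGATA2 arrays, which share no array with the siNT comparison. There 27 of the 37 genes were higher in MDVR, 4 were lower and 6 did not pass, beside 28.3% higher and 25.4% lower over all genes, 53.7% in either direction, and 45.2% of all probes. The median log2 difference was 0.71. Of the 37, 25 were higher in MDVR under both siRNAs and 4 were lower under both (EPAS1, CA12, STC2 and HK1). No gene was called in opposite directions, and on 30 genes the MDVR and Abl arrays did not overlap, against 60.9% of all genes. PFKM, PGAM1 and PKM passed under siNT alone, and EGLN1 and PDK3 under siGATA2 alone. For none of those 5 did the line difference itself differ between the siRNAs, by limma's test of the difference of siGATA2 effects. The PDK3 call under siGATA2 (0.27, adjusted p = 0.0365) was lost without MDVR siGATA2 replicate 1 (0.22, adjusted p = 0.141) or replicate 2, or without Abl siGATA2 replicate 3 or 4.

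**Figure D3:**
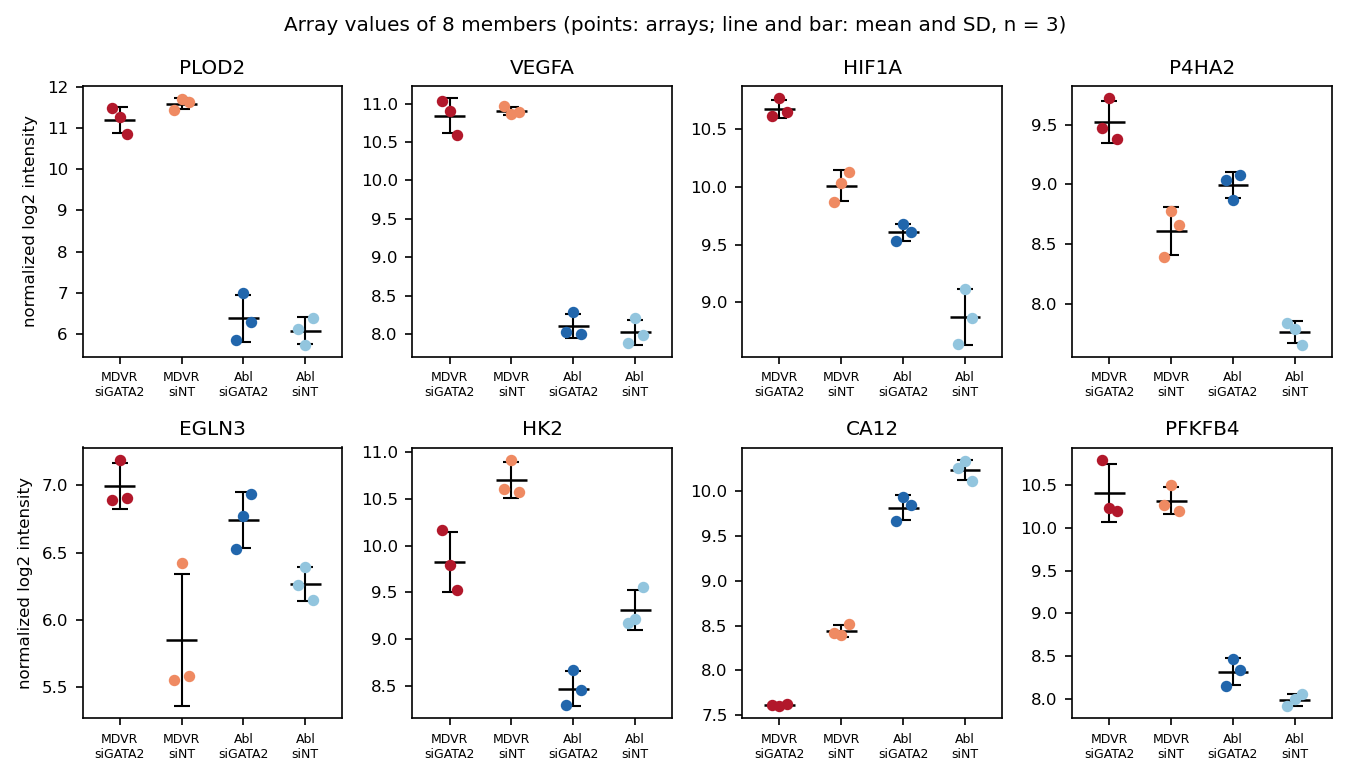
Normalized log2 intensity of 8 of the genes on each array (points), with the group mean and SD (line and bar, n = 3), in the order MDVR siGATA2, MDVR siNT, Abl siGATA2 and Abl siNT; each panel has its own axis, which does not start at 0. PLOD2, VEGFA and PFKFB4 divide by line, whereas HIF1A, P4HA2, HK2 and CA12 divide by both line and siRNA.

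The siGATA2 effect reached a minority of the genes. In MDVR 6 of the 37 rose, 5 fell and 26 did not pass, beside 10.3% of all genes higher and 9.28% lower (19.6% in either direction, and 15.5% of all probes). In Abl 6 rose, 4 fell and 27 did not pass, beside 13.6% higher and 14.6% lower (28.2% in either direction, and 22.1% of all probes). The count of 11 of 37 in MDVR is above the share of the whole array by a few genes, and 10 of 37 in Abl is near it. The median log2 effect was 0.03 in MDVR and 0.12 in Abl, and 0.00 over all genes in each line. The siGATA2 and siNT arrays were separate on 14 of the 37 genes in MDVR and 17 in Abl, against 36.3% and 43.2% of all genes.

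Under siGATA2 4 genes passed in the same direction in both lines. HIF1A rose by 0.66 in MDVR (SE 0.11, adjusted p = 0.000198) and by 0.73 in Abl (SE 0.11, adjusted p = 4.08e-05), or 1.59-fold and 1.66-fold, though 1 of its 3 probes did not pass in MDVR (0.38, adjusted p = 0.186). P4HA2 rose by 0.92 in MDVR (SE 0.12, adjusted p = 1.68e-05) and by 1.23 in Abl (SE 0.12, adjusted p = 1.95e-07), and on both of its probes. HK2 fell by 0.87 in MDVR (SE 0.14, adjusted p = 0.000275) and by 0.84 in Abl (SE 0.14, adjusted p = 0.00022), and CA12 fell by 0.82 in MDVR (SE 0.10, adjusted p = 5.41e-06) and by 0.42 in Abl (SE 0.10, adjusted p = 0.00296). Both HK2 probes and both CA12 probes were called lower in each line. For these 4 genes the siGATA2 and siNT arrays, listed above, do not overlap in either line.

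A further 7 genes passed in MDVR and not in Abl. EGLN3 rose by 1.14 in MDVR (SE 0.20, adjusted p = 0.00056), beside 0.48 in Abl (adjusted p = 0.107), which passed without MDVR siNT replicate 3 (adjusted p = 0.0426). EGLN1 rose by 0.41 (adjusted p = 0.0475), STC2 by 0.29 (adjusted p = 0.0168) and PFKFB3 by 0.52 (adjusted p = 0.0374). PFKL fell by 0.42 (adjusted p = 0.0305), PFKP by 0.40 (adjusted p = 0.0243) and PKM by 0.33 (adjusted p = 0.0324). PFKFB3 was called on 1 of its 2 probes and PKM on 1 of its 3, with the same sign on every probe. For PFKP the siGATA2 and siNT arrays of MDVR overlap, since siGATA2 replicate 1 read 11.70. The EGLN3 call passed on leaving out any 1 array, and the other 6 calls did not. Without MDVR siNT replicate 3, the values were 0.35 for EGLN1 (adjusted p = 0.159), 0.57 for PFKFB3 (adjusted p = 0.0577), -0.34 for PFKL (adjusted p = 0.144), -0.27 for PFKP (adjusted p = 0.158) and -0.26 for PKM (adjusted p = 0.149). Without MDVR siGATA2 replicate 2, the same calls except that of PFKL were lost, and STC2 was 0.25 (adjusted p = 0.0824). Leaving out MDVR siGATA2 replicate 3 lost EGLN1, PFKL, PFKP and PKM, and MDVR siNT replicate 2 lost EGLN1, PFKFB3, PFKL and STC2. Leaving out MDVR siGATA2 replicate 1 lost EGLN1 and PFKFB3, MDVR siNT replicate 4 lost EGLN1, PFKFB3 and PKM, and 4 of the 6 Abl arrays lost EGLN1.

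Another 6 genes passed in Abl and not in MDVR. DDIT4 rose by 0.59 in Abl (SE 0.08, adjusted p = 8.86e-06), while its MDVR effect of 0.22 narrowly missed (SE 0.08, adjusted p = 0.0507). ALDOC rose by 0.51 (adjusted p = 0.00157), BNIP3L by 0.46 (adjusted p = 0.00993) and P4HA1 by 0.27 (adjusted p = 0.0443). BNIP3L and P4HA1 were each called on 1 of their 2 probes, with the same sign on both. LDHB fell by 0.26 (adjusted p = 0.0325) and PDK3 by 0.33 (adjusted p = 0.0226), the second PDK3 probe giving 0.19 (adjusted p = 0.326). The BNIP3L call was lost without Abl siGATA2 replicate 3 (0.37, adjusted p = 0.0647), that of LDHB on leaving out either Abl siGATA2 replicate 2 or 4 or Abl siNT replicate 2 (-0.17, adjusted p = 0.189), and that of PDK3 without Abl siGATA2 replicate 3 (-0.28, adjusted p = 0.0994) or 4 or Abl siNT replicate 2 or 3. The P4HA1 call was lost without any 1 of 5 Abl arrays (0.18, adjusted p = 0.232, without Abl siGATA2 replicate 3) or of 2 MDVR arrays, MDVR siGATA2 replicate 2 and MDVR siNT replicate 4.

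**Figure D4:**
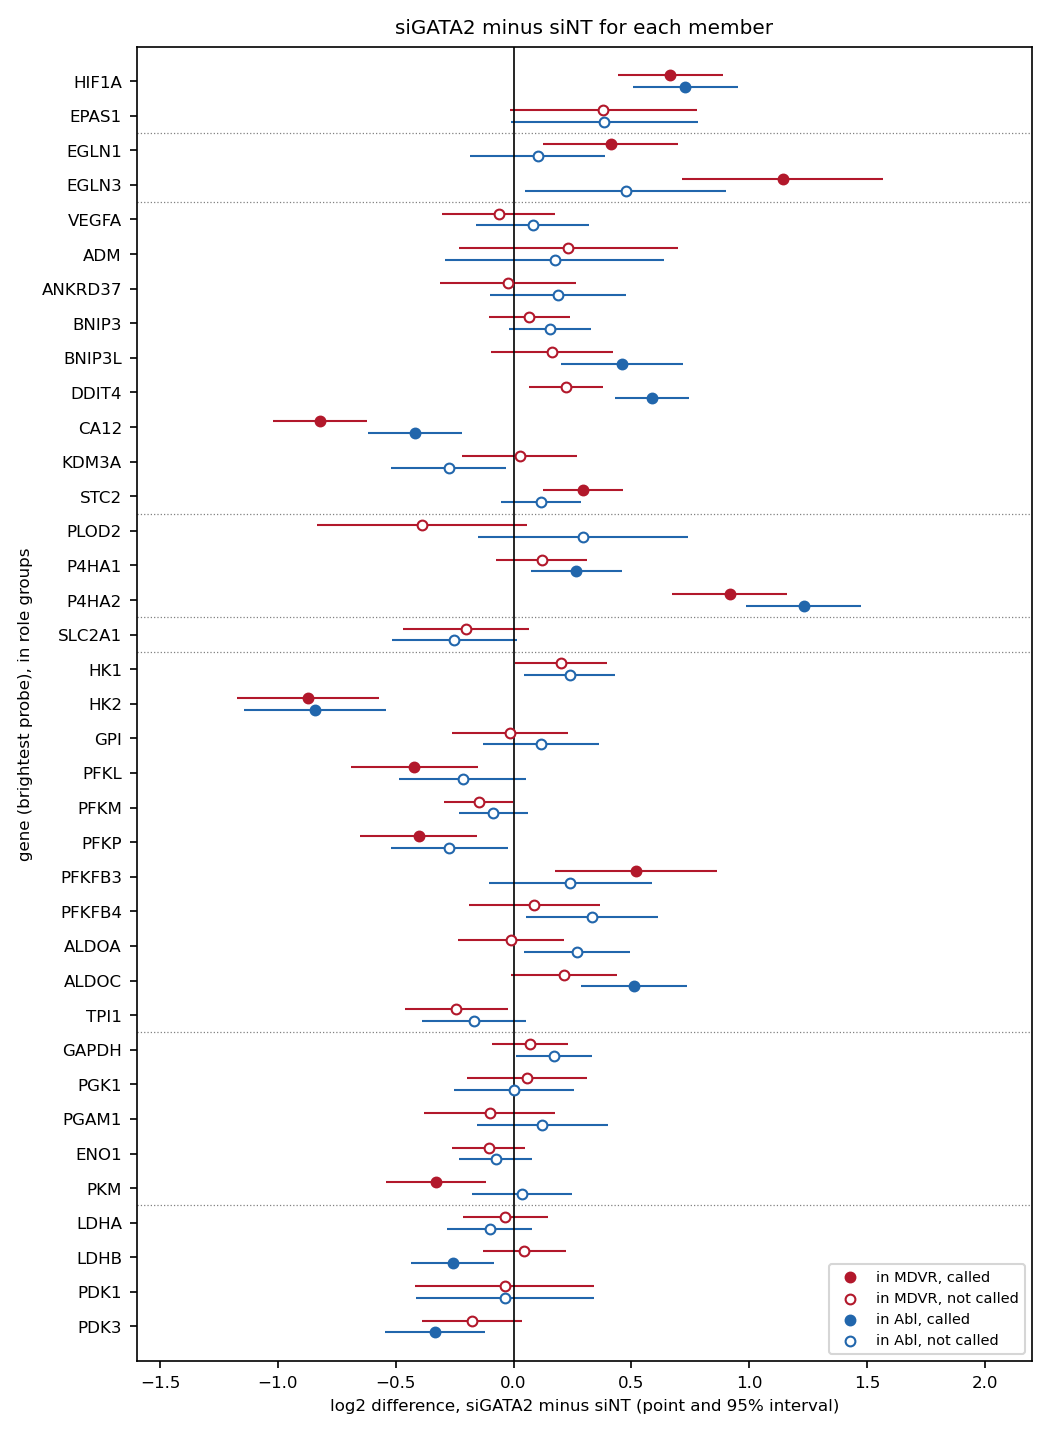
Log2 difference of siGATA2 minus siNT for each of the 37 genes in MDVR (red) and in Abl (blue), as a point with its 95% interval; filled points passed at an adjusted p under 0.05. HIF1A and P4HA2 lie right of 0 and HK2 and CA12 left of 0 in both lines, and most other intervals include 0 or lie close to it.

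The siGATA2 effect was then compared between the lines directly. By limma the difference of the 2 effects passed for 0 of the 37 genes, beside 4.96% of all genes (2.86% higher and 2.1% lower in MDVR) and 3.88% of all probes. At an unadjusted p under 0.05 it was 6 of the 37, against 19.8% of all genes. Adjusting over the table of genes alone or normalizing by cyclic loess gave 1 gene each, and the mean of all probes of a gene gave 2. The gene nearest to passing was DDIT4, whose effect was lower in MDVR than in Abl by a log2 difference of -0.36 (SE 0.11, 95% interval -0.59 to -0.14, adjusted p = 0.0609). It passed without Abl siNT replicate 3 (-0.42, adjusted p = 0.0315). For EGLN3 the difference was 0.67 (SE 0.29, 95% interval 0.06 to 1.27, adjusted p = 0.231), and 0.95 without MDVR siNT replicate 3 (adjusted p = 0.0384). For CA12 it was -0.40 (95% interval -0.68 to -0.12, adjusted p = 0.106). For HIF1A it was -0.06 with a 95% interval of -0.38 to 0.25, and for HK2 -0.03 with one of -0.46 to 0.40.

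VEGFA, PLOD2, PFKFB4 and SLC2A1, which separate the lines clearly, did not pass for siGATA2 in either line on their brightest probes. VEGFA gave -0.06 in MDVR (95% interval -0.30 to 0.18) and 0.08 in Abl (-0.16 to 0.32). SLC2A1 gave -0.20 in MDVR (adjusted p = 0.342) and -0.25 in Abl (adjusted p = 0.178), and PFKFB4 gave 0.09 in MDVR (adjusted p = 0.745) and 0.33 in Abl (adjusted p = 0.0863). The brightest PLOD2 probe gave -0.39 in MDVR (SE 0.21, adjusted p = 0.261) and 0.30 in Abl (adjusted p = 0.367). A second PLOD2 probe, detected on all 6 MDVR arrays, fell by 0.61 in MDVR (adjusted p = 0.0056). The remaining probe was also called lower in MDVR. It was detected on 1 of 3 MDVR siGATA2 arrays and on all 3 MDVR siNT arrays. The size of its difference there is therefore not given.

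Genes around the same pathway were read from lists of other regulators, targets and neighbouring enzymes. Of 16 measured regulators of HIF, 6 were higher in MDVR under siNT and 2 were lower, with a median of 0.08. That is 50% called, near the 48.9% of all genes, so the genes named next are single values and not a result about the list. VHL, the substrate receptor of the ligase that destroys HIF, was higher by 1.47 (SE 0.13, adjusted p = 1.85e-08). CITED2, which competes with HIF for its coactivators, was higher by 1.00 (adjusted p = 3.66e-07). ARNT2, a partner subunit, and CITED4 were not above background in Abl siNT and were at least 3.27-fold and at least 2.92-fold higher in MDVR (adjusted p = 4.2e-08 and 4e-08). With siGATA2 2 of the 16 rose in MDVR and 1 rose in Abl, and 0 fell in either line. That is 12.5% called in MDVR and 6.25% in Abl, against 19.6% and 28.2% of all genes. EGLN2, the remaining HIF prolyl hydroxylase, rose by 0.36 in MDVR (adjusted p = 0.00306) and by 0.32 in Abl (adjusted p = 0.00506). RBX1, the ring subunit of the VHL ligase, rose by 0.35 in MDVR (adjusted p = 0.00311).

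Of 26 other hypoxia targets measured, 11 were higher in MDVR under siNT and 4 lower, or 57.7% called, against 48.9% of all genes. STC1, a secreted glycoprotein related to STC2, was higher by 2.84 (adjusted p = 7.38e-10), ERO1A, an oxidoreductase of the endoplasmic reticulum, by 1.77 (adjusted p = 3.24e-08), NDRG1 by 1.60 (adjusted p = 2.42e-08) and AK4, a mitochondrial adenylate kinase, by 1.38 (adjusted p = 2.66e-09). With siGATA2 3 of the 26 rose and 4 fell in MDVR, and 5 rose and 5 fell in Abl, or 26.9% called in MDVR and 38.5% in Abl, against 19.6% and 28.2% of all genes. TXNIP, which restrains glucose uptake, had a siGATA2 effect that was higher in MDVR than in Abl by 1.55 (SE 0.22, adjusted p = 0.000215), rising by 1.19 in MDVR. FOS had one that was lower in MDVR by a log2 difference of -1.24 (SE 0.27, adjusted p = 0.0104).

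In the mitochondrial steps that follow glycolysis, more genes were lower in MDVR than higher. Of 23 measured genes of pyruvate entry and the TCA cycle, 2 were higher in MDVR under siNT and 12 were lower, with a median log2 difference of -0.25, beside 24.4% of all genes higher and 24.5% lower. Under siGATA2 3 were higher and 11 lower. MPC1, a subunit of the mitochondrial pyruvate carrier, was lower by a log2 difference of -1.26 (SE 0.07, adjusted p = 1.3e-11), IDH3A by -1.16 (adjusted p = 7.08e-07), IDH2 by -0.87 (adjusted p = 2.24e-08) and SUCLG1 by -0.53 (adjusted p = 2.8e-06). IDH3A and IDH2 encode isocitrate dehydrogenases and SUCLG1 a subunit of succinyl-CoA ligase. Under median scaling the count under siNT was 2 higher and 6 lower, with a median of -0.05, so part of this count depends on how the arrays were aligned.

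**Figure D5:**
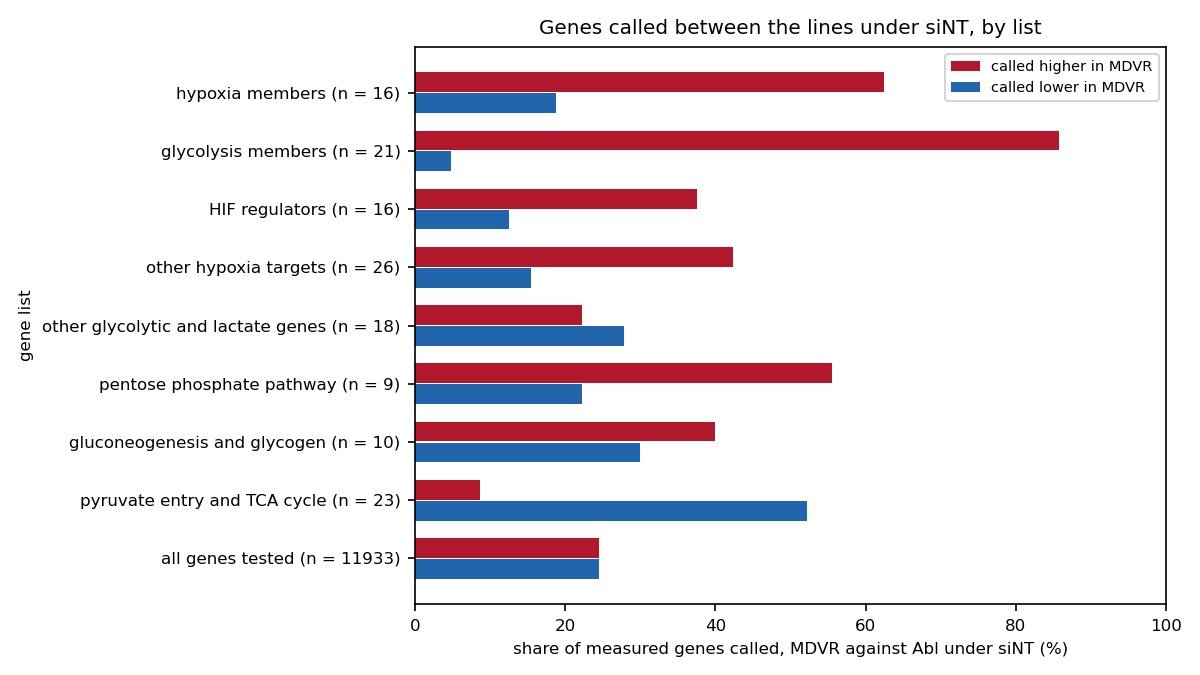
Share of the measured genes of each list called higher (red) or lower (blue) in MDVR than in Abl under siNT, in percent, at an adjusted p under 0.05; the last pair of bars is all 11933 genes, at 24.4% and 24.5%. Glycolysis genes have 18 of 21 higher, and pyruvate entry and the TCA cycle has 12 of 23 lower.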

How the data were processed

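RNA from 12 samples was hybridised to Illumina BeadChips, 1 array per sample. The deposited table gives, per the file headers, a linear intensity and a detection p-value for each of 47323 probes; the detection p-values step as ranks among 770 negative controls would. The authors' deposited second table holds processed log2 values for 23043 probes, made with lumi per the submitters' processing notes (settings: not given in the sources used here), and served as an alternative.

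Intensities were background corrected and quantile normalized with neqc (offset 16) in limma 3.58.1 under R 4.3.3. The detection filter (p under 0.05, 3 or more arrays) kept 22539. Symbols came from a platform annotation of 16978 probes, of which 16973 have 1 symbol and 5 several; 6672 kept probes without a single symbol stayed in the fit and out of the gene counts. The brightest kept probe stands for each gene, and levels are not compared between probes. All kept probes entered 1 lmFit of the 4 group means, with eBayes moderation and a trend (8 residual and 11.2 prior degrees of freedom), and p-values were adjusted by Benjamini-Hochberg over all kept probes in each of 5 contrasts. The median SE was 0.14 for a log2 difference of groups and 0.20 for the difference of effects; the number of arrays limits this precision. The model code was tested on simulated data with independent noise on each array. That test cannot show how the p-values hold where arrays share a culture.

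The labels do not say that replicates were separate cultures, so a p-value here covers the spread among these samples alone, which may be technical. The members, the lists and the rules below were chosen with earlier results of these data known. Array values are printed for HIF1A, EPAS1, EGLN1 and EGLN3 and, in each role group, for up to 4 genes with the smallest adjusted p between the lines under siNT and up to 2 called for siGATA2 in each line. From each other list, up to 4 called genes with the smallest adjusted p are named. Alternatives covered background correction, scaling, the authors' values, the detection filter, the choice of probe, the variance model, weights per array, blocks by replicate number, testing beyond 1.5-fold, and each array left out in turn. Promoter sequences are from RefSeq (GRCh38.p14), as are gene coordinates.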

Additional observations from a re-analysis of the deposited data

Results flagged for a closer look

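In 2 cases 1 probe of a gene had a siGATA2 effect that differed between the lines by limma, while the brightest probe of that gene did not. ALDOA probe ILMN_1736700 gave an MDVR effect minus Abl effect of -0.92 on the log2 scale (SE 0.17, adjusted p = 0.00286). It read 12.02, 11.93 and 11.65 in MDVR siGATA2, 12.34, 12.10 and 12.50 in MDVR siNT, 12.01, 12.47 and 12.20 in Abl siGATA2, and 11.82, 11.58 and 11.87 in Abl siNT. It fell by 0.45 in MDVR (adjusted p = 0.0144) and rose by 0.47 in Abl (adjusted p = 0.00687), and under siGATA2 its MDVR minus Abl difference was -0.36 (adjusted p = 0.0188), against 0.55 for the brightest ALDOA probe (adjusted p = 0.000268). PLOD2 probe ILMN_1799139 gave -1.04 (SE 0.28, adjusted p = 0.0431). It read 5.67, 5.08 and 4.79 in MDVR siGATA2 and 6.30, 6.05 and 6.16 in MDVR siNT. It was above background on 1 of the 3 MDVR siGATA2 arrays and all 3 MDVR siNT arrays, but on none of the 6 Abl arrays, so its Abl effect has no measured level on either side.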

How the results depend on the processing

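The line difference kept its direction for the genes called in it under the alternatives run, with 1 exception: ALDOA under siGATA2 was 0.55 on its brightest probe and -0.049 on the mean of all its probes (adjusted p = 0.731). Without any one array, 31 to 32 genes were called between the lines under siNT and 29 to 31 under siGATA2, 6 to 12 for siGATA2 in MDVR, 7 to 13 in Abl, and 0 to 1 for the difference of effects. The MDVR count was 6 without MDVR siGATA2 replicate 2 or MDVR siNT replicate 3 and 7 without MDVR siNT replicate 2, against 11 reported. The difference was called for 1 gene without MDVR siNT replicate 3 (EGLN3) or Abl siNT replicate 3 (DDIT4). It was called for 1 gene with cyclic loess, 1 with the table of genes only and 2 with the mean of all probes. Without a variance trend the siGATA2 counts were 6 in MDVR and 6 in Abl. A test for a change beyond 1.5-fold left 17 genes in each line difference, 0 for siGATA2 in MDVR and 1 in Abl. Probe signal over background limits EPAS1 and PDK1, whose siNT differences ranged to -0.31 and 0.28 on values with less correction.

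Replicate numbers 2 and 3 occur under both siRNAs in each line. Deviations of same-numbered arrays correlated at 0.00 and 0.08 in MDVR and at 0.11 and 0.01 in Abl, over 2 pairs per line, so the numbers were not taken to pair the samples. With a replicate block across groups, 8 genes were called for siGATA2 in MDVR, 9 in Abl, 31 between the lines under siNT and 29 under siGATA2. With a replicate block within each line the counts were 11 in MDVR, 8 in Abl and 1 for the difference (PLOD2), and the line differences could not be estimated.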

Other observations

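Enzymes beside the main line of glycolysis were mixed between the lines. Of 18 other glycolytic and lactate genes measured, 4 were higher in MDVR under siNT and 5 were lower, or 50% called, near the 48.9% of all genes. SLC2A6, a member of the glucose transporter family, was lower by a log2 difference of -2.10 (SE 0.12, adjusted p = 2.65e-11), and GPD2, the mitochondrial glycerol phosphate dehydrogenase, by -1.40 (adjusted p = 1.81e-06). PDK2, a further kinase of pyruvate dehydrogenase, was at least 2.43-fold higher (adjusted p = 2.48e-07), as it was not above background in Abl siNT. ACYP1, an acylphosphatase, had a siGATA2 effect that was higher in MDVR than in Abl by 0.86 (SE 0.14, adjusted p = 0.00121), having fallen by 1.22 in Abl. With siGATA2 4 of the 18 rose and 5 fell in MDVR, and 5 rose and 3 fell in Abl. That is 50% called in MDVR and 44.4% in Abl, against 19.6% and 28.2% of all genes. SLC2A12 rose with siGATA2 by 0.67 in MDVR (adjusted p = 0.0016) and by 0.96 in Abl (adjusted p = 2.24e-05).

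Of 9 measured genes of the pentose phosphate pathway, 5 were higher in MDVR under siNT and 2 were lower. That is 77.8% called, against 48.9% of all genes. Under median scaling 5 were higher and 0 lower. The pathway branches off at glucose phosphate to make NADPH and ribose. PGLS, the lactonase of its oxidative branch, was higher by 1.76 (SE 0.12, adjusted p = 4.66e-10), RPE by 0.82 (adjusted p = 7.42e-07) and RPIA by 0.75 (adjusted p = 8.18e-07), the last 2 being sugar phosphate isomerases. With siGATA2 0 rose and 2 fell in MDVR, and 0 rose and 3 fell in Abl. Those shares, 22.2% in MDVR and 33.3% in Abl, are near the 19.6% and 28.2% of all genes called. TKT, transketolase, fell by 0.58 in MDVR (adjusted p = 5.96e-05) and by 0.42 in Abl (adjusted p = 0.000936), and RPIA fell by 0.37 in MDVR (adjusted p = 0.00642) and by 0.81 in Abl (adjusted p = 1.3e-06). Of 10 genes of gluconeogenesis and glycogen, 4 were higher and 3 lower in MDVR under siNT. That is 70% called, against 48.9% of all genes. PCK2, the mitochondrial phosphoenolpyruvate carboxykinase, was higher by 0.89 (adjusted p = 1.36e-06), and GYG1, the glycogen primer glycogenin, was lower by a log2 difference of -0.81 (adjusted p = 5.8e-08). With siGATA2 3 of the 10 rose and 1 fell in MDVR, and 5 rose and 1 fell in Abl. That is 40% called in MDVR and 60% in Abl, against 19.6% and 28.2% of all genes. PGM2, a phosphoglucomutase, rose with siGATA2 by 0.63 in MDVR (adjusted p = 8.12e-05) and by 0.60 in Abl (adjusted p = 7.06e-05).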
